A study of Mus musculus with 191 samples.

Results

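Neutrophil depletion in mouse lung was examined in the 36 lung libraries of a study of daily gene expression with and without neutrophils, which holds 191 libraries in all. The deposited labels of these lung libraries are in doubt. Each lung library was therefore given the Zeitgeber time (ZT, hours after lights on) and the treatment of the liver library with the same number in its title, an assignment chosen by measured values in these libraries. Which genes were used is not recorded, and clock and neutrophil genes are treated here as among them. This put 18 libraries in the anti-Ly6G group and 18 in the IgG group, 3 of each at ZT 1, 5, 9, 13, 17 and 21. The mice were wild-type C57BL/6. Treated mice were given 1A8, an antibody to the neutrophil surface protein Ly6G, and control mice were given IgG. Each dose was 3 µg per g, given on 2 days, and lungs were taken on the third day. Per the labels, all lung mice were bled from the cheek before harvest, and some mice were kept in cabinets with inverted light, without saying which, so that a cabinet effect cannot be told apart from ZT. The labels do not give the age of the mice. Values are the deposited normalized signal, a linear scale relative to library size. Recovered depth was between 12.4 M and 21.2 M counts (median 16.4 M) per library with IgG and between 11.5 M and 20.8 M (median 16.9 M) with anti-Ly6G. The summed signal of 12 alveolar type 2 cell genes, which mark the surfactant-producing cells of the lung, was between 28460 and 42650 in every library of both groups.

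Neutrophils are short-lived granulocytes that are made in the bone marrow, circulate for hours, and are retained in number in the narrow capillaries of the lung. They carry preformed granules, respond to granulocyte colony-stimulating factor through the receptor encoded by Csf3r, and migrate on chemokines read by Cxcr2. Their release and clearance follow the time of day, and antibodies to Ly6G are used to deplete them in mice.

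The 2 sets of labels were first set beside each other. None of the 36 libraries kept its ZT between the deposited labels and the title numbers, and 28 changed treatment. The columns of the lung table stand in the order of their names read as text (LU10 to LU19, LU1, LU20 and so on). The deposited label of the library at each place in that order was the liver label of that place number in 36 of 36 cases. The numbered bone marrow and gut libraries carried the liver's labels in 36 of 36 cases each.

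Clock genes, whose products form the transcriptional loop that keeps daily time in each cell, are treated as among the values that led to the assignment and are given as a description. Arntl, which encodes the clock activator BMAL1, had 3 IgG libraries between 42.0 and 50.8 at ZT 1, between 1.89 and 2.98 at ZT 9 and between 49.3 and 54.3 at ZT 21 by title number. Dbp, a clock output gene that encodes a transcription factor, had IgG libraries between 2.06 and 2.91 at ZT 1, between 219 and 246 at ZT 9 and between 2.10 and 2.88 at ZT 21. Low and high hours thus lay in opposite phase in these 2 genes. Over 19 core clock genes, ZT explained a median share of variance (R2 of log2 values) of 0.902 by title number and 0.65 by the deposited labels, and the share was higher by title number for 19 of 19. The ZT of the highest IgG mean lay within 4 h of that in gut for 18 genes by title number and for 8 by the deposited labels, and within 4 h of that in liver for 18 and 10 genes. Of 15641 genes tested in lung, 6071 (38.8%) varied with ZT by title number and 2379 (15.2%) by the deposited labels.

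**Figure D1:**
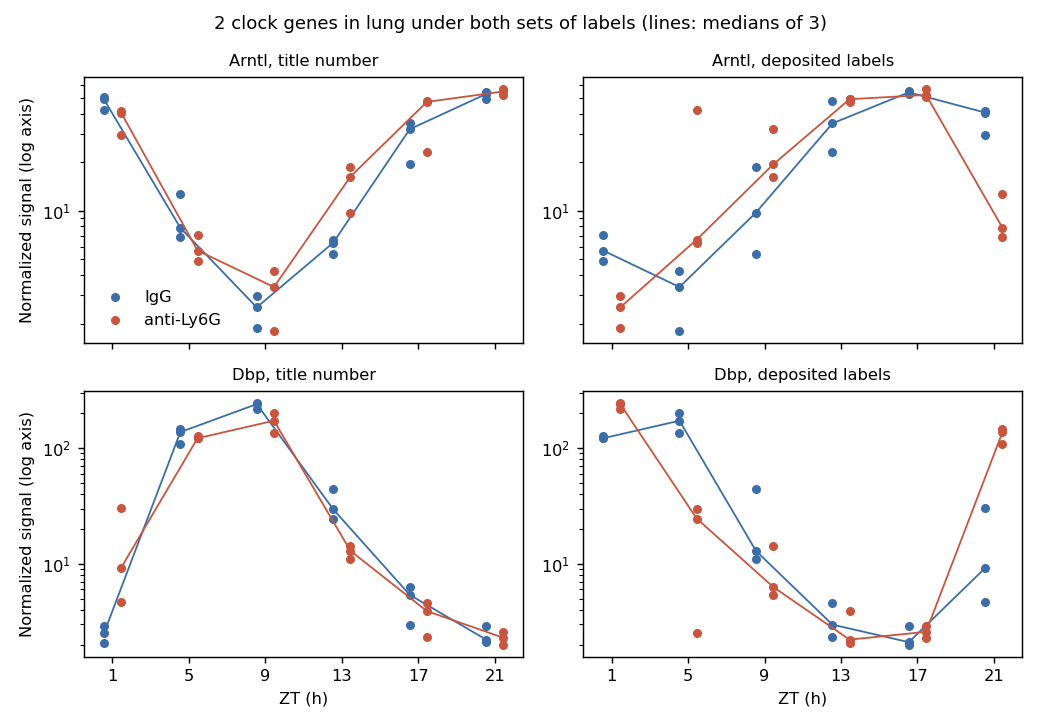
Normalized signal (log axis) of Arntl and Dbp against ZT (h) in the 36 lung libraries, with ZT and treatment from the title number (left) and from the deposited labels (right); points are libraries and lines join medians of 3. By title number the IgG values of Arntl are lowest at ZT 9, between 1.89 and 2.98, and by the deposited labels 1 anti-Ly6G library at ZT 5 stands far from the other 2.

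A further comparison used differences between animals within a group, which neither set of labels fixes. Slc15a2, which encodes a peptide transporter, varied between animals of the same ZT and treatment, and its deviations from the mean of each 3 libraries had a Pearson correlation of 0.946 between bone marrow and gut libraries of the same number. Between lung and bone marrow the correlation was 0.864 with libraries matched by title number and 0.0645 with the lung library taken by its place in the table. Between lung and gut it was 0.891 and -0.0151. In levels, 10 numbers had Slc15a2 below 10 in bone marrow, and the lung libraries with those numbers, 3 of them IgG, had values between 24.0 and 46.7 (median 34.5). The lung libraries of the other 26 numbers, 15 of them IgG, had values between 37.7 and 79.8 (median 52.8). Taken by place in the table, the lung values were between 25 and 79.8 (median 41.2) and between 24.0 and 72.7 (median 47.0), so that the ranges overlapped almost wholly. Phka1, which encodes a subunit of phosphorylase kinase, had correlations of 0.76 and -0.0555 between lung and bone marrow in the same order. These correlations run over 36 libraries a tissue, are given as a description, and share the tables' own normalization. Of 11187 genes expressed in all 4 tissues, 30 had a correlation above 0.7 between lung and bone marrow by title number and 1 by table place. For lung and gut these numbers were 20 and 2, and for lung and liver 21 and 0. The median over all 11187 genes was 0.0963 by title number and -0.00119 by table place for bone marrow, and 0.0456 and 0.0566 for gut, so that in gut the title number was not higher for the bulk of genes.

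**Figure D2:**
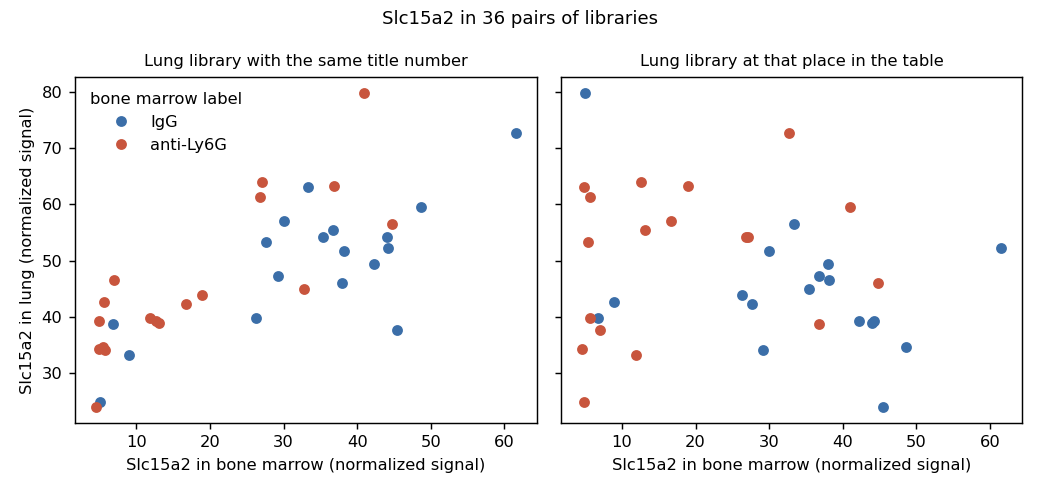
Slc15a2 in lung against Slc15a2 in bone marrow (normalized signal, 36 pairs of libraries), with the lung library matched by title number (left) or by its place in the lung table (right); colours give the bone marrow label. On the left, the 10 pairs below 10 in bone marrow have lung values between 24.0 and 46.7, and on the right such pairs reach 79.8.

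Genes of mature neutrophils were lower with anti-Ly6G than with IgG by title number. Because such genes are treated as among the values that led to the assignment, their differences cannot serve as a check of it. They are given as a description, without a test. Csf3r (ENSMUSG00000028859, GRCm38 chromosome 4, 126024550 to 126044440) was between 6.24 and 33.7 (median 14.1) with IgG and between 4.56 and 12.6 (median 6.88) with anti-Ly6G. The means were 14.5 ± 5.98 and 6.94 ± 1.87 (SD, n = 18 each), or -0.91 on the log2 scale (SE 0.116), with the same sign at 6 of 6 ZT. With the deposited labels the difference was 0.53. S100a9, which encodes a subunit of the abundant neutrophil protein calprotectin, was between 5.25 and 54.2 (median 15.6) with IgG and between 1.46 and 19.2 (median 7.35) with anti-Ly6G. Its log2 difference was -1.10 (SE 0.224; deposited labels 0.55). Values of both genes overlapped between the groups, and the highest IgG value of both was that of 1 library at ZT 9, LU14. With each library left out in turn, LU14 included, S100a9 stayed between -1.19 and -0.97.

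S100a8, the other subunit of calprotectin, had a log2 difference of -0.92 (SE 0.208), Mmp9, a gelatinase of neutrophil granules, -0.60 (SE 0.0933), and the myeloid gene Slfn4 -0.56 (SE 0.118). Retnlg was at -0.34, Clec4d at -0.33, Trem1 and Hcar2 at -0.19 each, Wfdc21 at -0.16, Lrg1 at -0.10, Pglyrp1 at -0.08 and Ccrl2 at -0.05. Cxcr2 was at -0.18, with means of 8.45 ± 1.52 and 7.31 ± 0.996. The collagenase gene Mmp8 was at -0.01, the neutrophil surface gene Cd177 at 0.11, Clec4e at 0.07 and G0s2 at 0.02. Of 30 genes of the mature neutrophil list 19 were expressed at a mean of at least 1, and 16 of these 19 were negative, with a median log2 difference of -0.19. Il1r2, Cxcr1 and Asprv1 lay under that mean, and the other members, Ly6g among them, had no entry in the lung data under the identifiers used here. Of the azurophil granule list only Serpinb1a passed the mean (-0.11), and Mpo, Elane and Ctsg likewise had no entry. Of the specific and gelatinase granule genes, Padi4 was at -0.37, Ltf at -0.19, Cybb at -0.13, Cyba at -0.10, Lcn2 at -0.08, Orm1 at 0.00, Cd63 at 0.01, Chil3 at 0.02 and Hp at 0.15. Several of these, such as Hp, Lcn2 and Chil3, are also made by lung epithelium or macrophages. In bulk tissue, fewer cells of a type and less RNA per cell cannot be told apart.

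In bone marrow of the same experiment, whose table was normalized on its own, Csf3r was lower as in lung, and S100a9, S100a8, Mmp9 and Slfn4 were not. The median of 19 mature neutrophil genes tested there was 0.04. S100a9 had a log2 difference of 0.11, S100a8 of 0.15, Mmp9 of 0.04, Slfn4 of 0.38 and Csf3r of -0.23. Their levels with IgG were 7971 for S100a9 and 304 for Csf3r in bone marrow, against 16.9 and 14.5 in lung. No test across the tables was made.

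By title number, 1076 of 15641 genes (6.88%) passed the threshold of 0.05 in the comparison of anti-Ly6G with IgG (limma on log2(value + 1), adjusted for ZT, Benjamini-Hochberg adjustment). Of these, 545 (3.48%) were higher and 531 (3.39%) lower, and 1062 had the same sign at 5 or 6 of the 6 ZT. The differences were small. The median absolute log2 difference of the called genes was 0.185, 6 were more than 1.5-fold higher, 8 more than 1.5-fold lower, and 1, S100a9, more than 2-fold lower on the scale of value + 1, which understates the folds of low genes. By the ratio of the group means themselves, 18 were more than 1.5-fold higher and 23 lower, and those past 2-fold were Nr4a3 (2.01-fold higher) and, lower, Csf3r, Il1b, S100a8, S100a9 and the unnamed gene model Gm45208, which was picked after its value was seen. Neutrophil and clock genes are within these counts, and their calls are no support for the assignment. The median of all genes was -0.0013. With the deposited labels, no gene passed (1462 genes at an unadjusted p under 0.05, against 3471 by title number), and the smallest adjusted p was 0.123, that of Prr11. All 1076 genes had the opposite sign with the deposited labels, which swap the treatment of 28 of 36 libraries, and 557 of them had an unadjusted p under 0.05 there. The 5 genes with the smallest p by the deposited labels, none of which passed, were Prr11 (0.35), Rhof (0.29), Gm9752 (-0.26), Mapk6 (0.16) and Nek1 (-0.12), and by title number they were at -0.30, -0.27, 0.24, -0.13 and 0.07. The same test called 2445 of 14289 genes (17.1%; 9.95% higher, 7.16% lower) in bone marrow and 175 of 12504 (1.4%; 0.776% higher, 0.624% lower) in liver. Leaving out ZT 5 or ZT 1 gave 515 and 583 genes in lung by title number, and dropping the ZT term gave 342. Fits with single libraries left out gave 804 (LU11) to 1360 (LU16). Per the labels, each group holds 3 separate mice a ZT.

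Cell cycle genes fell with anti-Ly6G. Mki67, which encodes the proliferation marker Ki-67 (ENSMUSG00000031004, GRCm38 chromosome 7, 135689784 to 135716361), had values between 13.2 and 21.8 (median 18.1) with IgG and between 8.34 and 15.3 (median 11.3) with anti-Ly6G. The groups overlapped only between 13.2 and 15.3. Its means were 17.6 ± 2.62 and 11.2 ± 1.71 (SD, n = 18 each), 1.57-fold lower by the means (log2 -0.60, SE 0.0667; adjusted p = 1.8e-06), with the same sign at 6 of 6 ZT, and it had the smallest p of all genes. The deposited labels gave 0.37 (adjusted p = 0.36). Cdk1, the kinase that drives entry into mitosis, was between 2.96 and 4.97 (median 3.67) with IgG and between 1.78 and 3.18 (median 2.40) with anti-Ly6G (log2 -0.47, SE 0.0612; adjusted p = 2.4e-05). The 2 groups shared only the stretch from 2.96 to 3.18.

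Of 18 genes of mitosis, 15 fell and none rose, where 3.39% of all genes tested fell, and all 18 were negative, with a median log2 difference of -0.33 (deposited labels 0.19). Top2a, the topoisomerase that untangles chromosomes, was at -0.44, and Aurkb, the Aurora kinase of chromosome segregation, at -0.39. The members that did not pass were Bub1 (-0.11), Aurka (-0.15) and Plk1 (-0.20). The summed signal of the 18 genes was between 80.1 and 116 (median 94.3) in the IgG libraries and between 60.6 and 81.4 (median 70.8) in the anti-Ly6G libraries, so that the groups shared only the stretch from 80.1 to 81.4. Of 17 genes of DNA replication, 9 fell and none rose, all 17 were negative, and the median was -0.14 (deposited labels 0.10). Mcm5 and Mcm2, subunits of the replicative helicase, were at -0.40 (adjusted p = 2.2e-05) and -0.27. Rrm2, a subunit of the enzyme that makes deoxyribonucleotides, was at -0.44 (adjusted p = 2.8e-05), and the licensing factor gene Cdt1 at -0.27. Pcna (-0.06) and Tyms (-0.01) did not pass. In bone marrow, where dividing precursors are many (Mki67 at 2411 with IgG), 2 of 18 mitosis genes fell and the median was -0.04, and 6 of 17 DNA replication genes fell with a median of -0.08, where 7.16% of all genes fell. In liver, where 0.624% of all genes fell, none of the 7 mitosis genes tested passed (median -0.10). Of 16 DNA replication genes tested there 1 fell, Mcm3 at -0.34 (median -0.03). At that share so few genes cannot show whether the lists changed in liver. With single lung libraries left out, 14 to 17 mitosis genes fell, and with single ZT left out, 10 to 15. For DNA replication these numbers were 8 to 9 and 5 (without ZT 13) to 9.

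The promoters of the 4 mitosis genes with the largest fall that have an entry in RefSeq are shown because members of the list moved together. Cell cycle promoters are known for CCAAT boxes, which nuclear factor Y binds, and for the cell cycle homology region (CHR), read by a repressor complex in resting cells. Each sequence gives the 250 bases before the start of the gene on its own strand (RefSeq, GRCm38.p6), with matches to CCAAT (or ATTGG) and to TTTGAA (or TTCAAA) in capitals. No 2 matches overlap in these windows.
Mki67, chr7:135716380-135716629, minus strand: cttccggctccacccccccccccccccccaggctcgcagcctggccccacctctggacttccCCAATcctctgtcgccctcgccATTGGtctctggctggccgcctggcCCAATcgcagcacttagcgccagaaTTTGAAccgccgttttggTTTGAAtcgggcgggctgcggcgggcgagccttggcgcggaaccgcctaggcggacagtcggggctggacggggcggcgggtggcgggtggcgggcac
Cdk1, chr10:69352913-69353162, minus strand: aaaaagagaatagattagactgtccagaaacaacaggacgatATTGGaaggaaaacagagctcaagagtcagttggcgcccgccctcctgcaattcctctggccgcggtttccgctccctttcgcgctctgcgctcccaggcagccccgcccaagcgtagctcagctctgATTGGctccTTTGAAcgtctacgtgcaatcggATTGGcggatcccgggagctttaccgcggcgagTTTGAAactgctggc
Top2a, chr11:99024190-99024439, minus strand: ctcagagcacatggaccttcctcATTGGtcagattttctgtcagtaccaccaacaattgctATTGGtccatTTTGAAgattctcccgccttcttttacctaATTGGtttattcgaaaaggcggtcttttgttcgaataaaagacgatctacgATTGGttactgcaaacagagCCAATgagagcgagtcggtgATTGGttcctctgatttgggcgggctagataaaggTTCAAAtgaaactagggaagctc
Ccnb1, chr13:100786487-100786736, minus strand: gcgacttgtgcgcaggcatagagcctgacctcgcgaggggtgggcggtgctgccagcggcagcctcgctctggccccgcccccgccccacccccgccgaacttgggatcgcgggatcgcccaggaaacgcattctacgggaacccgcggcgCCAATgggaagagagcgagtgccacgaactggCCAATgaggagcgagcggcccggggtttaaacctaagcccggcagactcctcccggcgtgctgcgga
Mki67 held 3 CCAAT matches and 2 CHR matches, Cdk1 3 and 2, Top2a 6 and 2, and Ccnb1, the cyclin that partners Cdk1, 2 and none. Of 15 mitosis genes with an entry, 13 (86.7%) held CCAAT on either strand, against 33.8% of 32851 RefSeq promoters, and 6 (40%) held TTTGAA, against 16%. Of 13 promoters of 12 DNA replication genes, 10 (76.9%) held CCAAT and 1 (7.69%) held TTTGAA. A match is a run of letters and not a measured binding site.

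**Figure D3:**
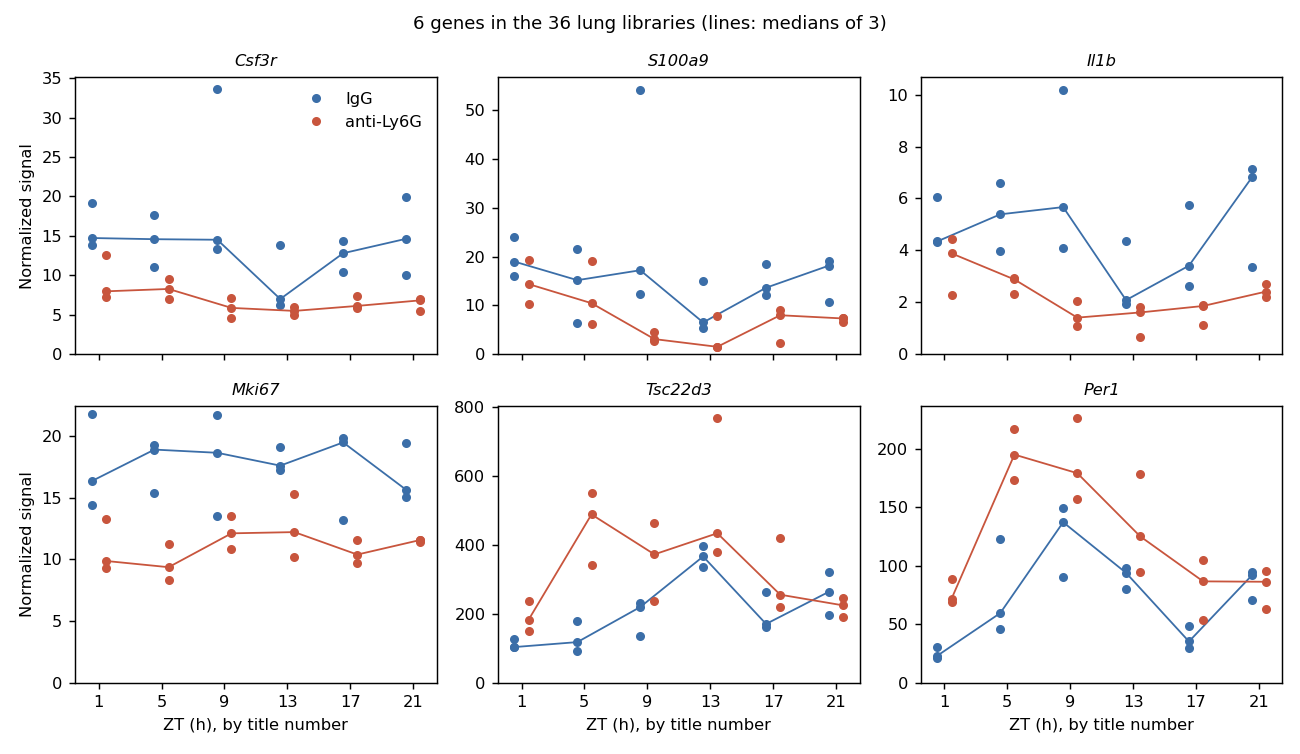
Normalized signal of 6 genes against ZT (h, by title number) in the 36 lung libraries; points are libraries and lines join medians of 3. Mki67 is lower with anti-Ly6G at every ZT, Csf3r and S100a9 have 1 IgG library far above the rest at ZT 9, and the higher values of Tsc22d3 and Per1 with anti-Ly6G stand out at ZT 5.

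Some genes that respond to glucocorticoids, the adrenal hormones that peak before the active phase, rose with anti-Ly6G. Tsc22d3, which encodes the glucocorticoid-induced leucine zipper protein (ENSMUSG00000031431, GRCm38 chromosome X, 140539528 to 140600659), was between 93.1 and 396 (median 188) with IgG and between 151 and 769 (median 298) with anti-Ly6G. The groups overlapped widely. The means of 210 ± 95.8 and 342 ± 159 (SD, n = 18 each) gave a 1.63-fold rise, and the fit gave 0.71 on the log2 scale (SE 0.15; adjusted p = 0.0038; deposited labels -0.64). At ZT 5 the 3 IgG libraries were between 93.1 and 179 and the 3 anti-Ly6G libraries between 341 and 550, while at ZT 21 the ranges were 196 to 322 and 192 to 247. Its call ended without a ZT term (adjusted p = 0.0522).

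Per1 is both a glucocorticoid target and a clock gene, so its values are a description. It was between 21.5 and 149 (median 75.1) with IgG and between 53.7 and 226 (median 100.3) with anti-Ly6G, which is 0.85 on the log2 scale (SE 0.142; deposited labels -0.69). At ZT 1 its IgG values were between 21.5 and 30.5 and its anti-Ly6G values between 69.3 and 88.9, and at ZT 21 between 70.4 and 94.3 and between 62.6 and 95.6. The first of its 2 RefSeq promoters is shown, and it holds an E-box, the element that the clock activators read.
Per1, chr11:69098699-69098948, plus strand: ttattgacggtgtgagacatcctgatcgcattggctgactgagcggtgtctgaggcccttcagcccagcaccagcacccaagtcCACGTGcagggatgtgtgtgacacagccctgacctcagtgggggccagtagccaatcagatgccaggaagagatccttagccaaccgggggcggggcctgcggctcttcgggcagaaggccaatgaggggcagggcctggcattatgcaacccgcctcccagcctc
The capitals mark 1 match to the E-box CACGTG, and the window held no match to the glucocorticoid half-site AGAACA (or TGTTCT) and none to the cAMP response element TGACGTCA. Of 23 promoters of 14 list members, 4 (17.4%) held the E-box, against 6.02% of all promoters. The half-site was in 5 (21.7%), against 16.1%, and the cAMP response element in 2 (8.7%), against 1.55%. Half-site promoters were those of Sgk1, Sult1a1 and Tsc22d3, and E-box promoters those of Per1, Sgk1, Dusp1 and Fkbp5. Sgk1 has several promoters in this set, and Sgk1, Dusp1 and Fkbp5 did not pass in lung.

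Per1 left out, 5 of 14 glucocorticoid response genes tested rose and none fell, where 3.48% of all genes rose, and the median log2 difference was 0.24 (deposited labels -0.29). That median was 0.10 without ZT 5 and 0.07 with the mean log2 level of B cell genes as a covariate. Errfi1, an inhibitor of the EGF receptor, was 1.55-fold higher by the means (138 ± 31.6 and 213 ± 69.4; log2 0.60, SE 0.103; adjusted p = 0.0006), and Ddit4, an inhibitor of the growth kinase mTORC1, was 1.54-fold higher by the means (log2 0.53, SE 0.111; adjusted p = 0.0035). Sult1a1 (0.40) and Klf9 (0.31) were the other members that rose. Among the members that did not pass were the classical targets Fkbp5 (0.25), Sgk1 (0.05), Dusp1 (-0.03), Mt1 (-0.06) and Mt2 (0.01). With single libraries left out 4 to 5 of the 14 rose, with single ZT left out 3 (without ZT 5) to 5, and without a ZT term 2. Per1 counted, 6 of 15 members rose in liver (0.776% of all genes), and in bone marrow 5 of 14 rose (9.95%) and 2 fell (7.16%). In liver and bone marrow, Tsc22d3 was at 0.94 and 0.54, Per1 at 0.93 and 0.72 and Ddit4 at 0.70 and 0.69. Given the Slc15a2 correlations above, libraries of the same number may be of the same mice, so the tissues cannot be read as independent. Other members differed between tissues. Mt1 (1.21), Mt2 (1.33) and Lcn2 (1.48) rose in liver and did not pass in lung, while Errfi1, Sult1a1 and Klf9 passed in neither liver nor bone marrow.

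Other large rises were of genes outside the glucocorticoid list used here, and whether they moved with that list was not tested. Nr4a3, an orphan nuclear receptor gene of the immediate early class, was between 1.87 and 6.89 (median 3.57) with IgG and between 3.26 and 19.7 (median 5.71) with anti-Ly6G (log2 0.77, SE 0.151; adjusted p = 0.0023). Spp1, which encodes the secreted protein osteopontin, had means of 70.4 ± 26.2 and 109 ± 37.5, a rise of 0.64 (log2; SE 0.104, adjusted p = 0.00032), and in bone marrow it was at -0.44 (adjusted p = 0.057). Klf15, a transcription factor of metabolism, was at 0.55, Fam107a at 0.66, Wfdc8, of a family of secreted protease inhibitors, at 0.53 and the lectin receptor gene Clec12b at 0.46. Angptl4, an inhibitor of lipoprotein lipase, was at 0.56 (adjusted p = 0.0450). Its call ended in 21 of the 36 fits with 1 library left out, with adjusted p up to 0.0776, and that of Klf15 without ZT 5 (0.0517) and of Fam107a without ZT 1 (0.0543) or ZT 5 (0.187).

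**Figure D4:**
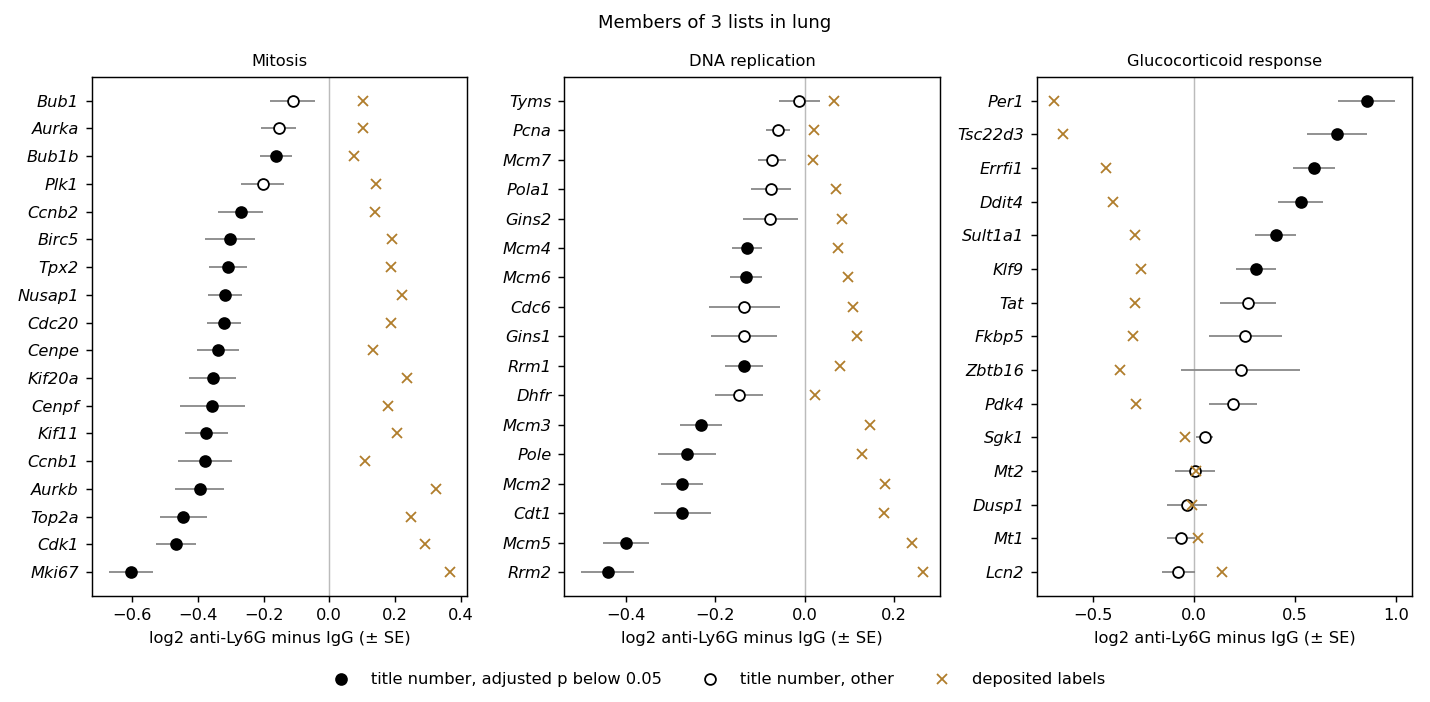
Log2 difference between anti-Ly6G and IgG (± SE) of each tested member of 3 lists in lung by title number, with filled points at an adjusted p below 0.05, and the difference by the deposited labels (crosses). All 18 mitosis genes lie below 0 by title number and above 0 by the deposited labels, and Per1 and Tsc22d3 lie highest in the glucocorticoid list.

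Among genes of interleukin 1 signalling, Il1b, which encodes the inflammatory cytokine interleukin 1 beta (ENSMUSG00000027398, GRCm38 chromosome 2, 129364570 to 129371139), fell most. It was between 1.95 and 10.2 (median 4.35) with IgG and between 0.653 and 4.45 (median 2.13) with anti-Ly6G. Means were 4.89 ± 2.05 and 2.20 ± 0.951 (SD, n = 18 each), 2.23-fold lower by the means (log2 -0.86, SE 0.123; adjusted p = 6.9e-05; deposited labels 0.35), with the same sign at 6 of 6 ZT. At ZT 13 the IgG libraries were between 1.95 and 4.36 and the anti-Ly6G libraries between 0.654 and 1.80. In bone marrow Il1b was at 40.6 with IgG and 11.8 with anti-Ly6G (log2 -1.61), and in liver at 0.03 (adjusted p = 0.96). Il1a (-0.30) and the receptor antagonist gene Il1rn (-0.24) also fell, and Nfkbia, the inhibitor of NF-kB, had means of 99.6 ± 9.15 and 132 ± 30.9, a rise of 0.38 (log2; SE 0.0694, adjusted p = 0.001). Of the 10 genes tested, 3 fell (3.39% of all genes) and 1 rose (3.48%), with a median of -0.04, and Tnf (-0.00), Ptgs2 (0.05) and Nlrp3 (-0.16) did not pass. The calls of Il1a and Il1rn each ended without 4 of the 6 single ZT (adjusted p up to 0.116 and 0.0706), ZT 1 and ZT 17 among them for both. Neutrophils themselves express Il1b, and the level of neutrophil genes moved with it, as given above. Neutrophil genes are treated as among the values that led to the assignment, so the p of Il1b is not independent of it. LU14 also had the highest Il1b, and the part of neutrophil content in the difference was not tested.

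Immediate early genes, which answer stimuli within minutes, moved both ways. Egr1, a zinc finger transcription factor, fell from 39.9 ± 18.2 to 23.7 ± 6.48 (log2 -0.65, SE 0.14; adjusted p = 0.0043). Junb, a subunit of the AP-1 factor, fell from 54.4 ± 11.1 to 40.9 ± 6.76 (log2 -0.39, SE 0.0534; adjusted p = 3.4e-05), with -0.47 in bone marrow and -0.43 in liver, and Ier2 was at -0.30. Of 19 genes tested, 4 fell (3.39% of all genes) and 3 rose (3.48%), Nr4a3 being the largest rise, and the median was -0.06. Fos (-0.34), Jun (0.07) and Atf3 (-0.01) did not pass. Whether handling moved such genes was not tested.

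Some matrix and mesenchymal genes fell. Of 20 collagen and matrix genes 7 fell and 1 rose, where 3.39% of all genes fell and 3.48% rose, 17 were negative, and the median was -0.10. Col15a1, a collagen of basement membranes, fell from 15.0 ± 3.26 to 11.3 ± 2.55 (log2 -0.38, SE 0.0749; adjusted p = 0.0024). Lox, the enzyme that cross-links collagen and elastin, moved the other way, from 54.5 ± 9.90 to 72.2 ± 13.5 (log2 0.40, SE 0.0816; adjusted p = 0.003). Tnc (-0.35), Col3a1 (-0.31) and Col1a1 (-0.24) also fell. Of 14 fibroblast genes, which share Col1a1, Col1a2 and Col3a1 with the first list, 5 fell (3.39% of all genes) and 2 rose (3.48%; Inmt and Pdgfra, 0.21 each), with Lum at -0.39 and Col14a1 at -0.22. Lgals1, a galectin, fell from 105 ± 14.1 to 80.8 ± 11.2 (log2 -0.37, SE 0.0488; adjusted p = 2.4e-05). Ndnf, a secreted factor gene, fell from 205 ± 32.4 to 149 ± 33.6 (log2 -0.47), the cytokine gene Lif was at -0.51 and Clec11a, a secreted growth factor gene, at -0.46. Only 2 collagen and matrix genes fell without ZT 5 or without ZT 21 and 4 without ZT 1, and 5 to 9 fell with single libraries left out. The calls of Tnc, Col3a1 and Col14a1 ended in 12, 6 and 4 of the 36 fits with 1 library left out.

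The remaining lists had at most 3 members called each, where 6.88% of all genes were called, so single members do not describe a cell type. Of 9 classical monocyte genes 4 were negative and 5 positive (median 0.02). Of 10 dendritic cell genes 6 were negative and 4 positive (median -0.01), and of 10 club cell genes 4 and 6 (median 0.12). All 11 T cell and 10 NK cell genes tested and 11 of 12 alveolar macrophage genes were negative. So were 9 of 10 interstitial macrophage, 10 of 10 MHC class II, 13 of 14 leukocyte adhesion and 9 of 9 fat cell genes. In contrast, 9 of 10 cilia genes were positive. The share of negative genes over all genes was not counted, and the median of all genes was -0.0013. LU14, an IgG library, had the highest sums of T cell and NK cell genes. In endothelium, Hey1, a Notch target, rose (0.32) and Apln, a capillary peptide, fell (-0.39), as did Ccl21a (-0.20), the chemokine of lymphatic vessels, and Fibin was at 0.24. In epithelium, Aqp5, the water channel of alveolar type 1 cells, fell (-0.19), and Cyp2f2 of club cells (0.21) and Dnah5 of cilia (0.23) rose. Of 12 alveolar type 2 genes none passed (median -0.02). In myeloid and lymphoid lists, Ly6c2 of classical monocytes rose (0.21), while Fabp1 (-0.35) and Ear2 (-0.22) of the alveolar macrophage list, Fscn1 of dendritic cells (-0.32), Cd28 of T cells (-0.25), Nkg7 of NK cells (-0.27) and the antigen presentation gene Cd74 (-0.21) fell. The leukocyte integrin gene Itgb2 (-0.22), the selectin ligand gene Selplg (-0.20), the chemokine scavenger Ackr3 (-0.21), the cholesterol exporter Abcg1 (-0.17), Tgfb1 (-0.15), the cytokine signal suppressor Socs3 (-0.19) and the fatty acid elongase gene Elovl1 (-0.19) fell, and the plasma proteins Cp (0.20) and Hp (0.15) and the glucose transporter Slc2a1 (0.16) rose. No member passed in the lists of interferon-stimulated genes (20 tested, median -0.06), heat shock genes (13, 0.03), cholesterol synthesis (18, -0.03), complement (15, -0.10) and smooth muscle (11, -0.04). With 6.88% of all genes called, lists of this size without a call lie near that share and are not shown to be unchanged. The members nearest to passing were Isg15 (-0.16) and Bst2 (-0.11) for interferon, Hspa1b (0.33) and Hspa8 (0.13) for heat shock, Dhcr7 (-0.13) and Nsdhl (-0.11) for cholesterol, C1qb (-0.15) for complement, and Cspg4 (-0.12) and Cox4i2 (-0.04) for smooth muscle. Likewise not passing were Etv5 (-0.13) and Napsa (-0.05) of alveolar type 2 cells, Folr2 (-0.22) of interstitial macrophages, Itgal (-0.13) and Pou2f2 (-0.16) of nonclassical monocytes, Siglecf (-0.21) and Cpa3 (-0.09) of eosinophils and mast cells, Pdia3 and Pdia6 (-0.08 each) of the endoplasmic reticulum, and Gsta3 (0.11) and Gclc (0.10) of the oxidative stress response. Pf4 (-0.23) and Icam1 (-0.12) of the recruitment list and Clec1b (0.13) of platelets did not pass either, nor did Upk1b (0.12) and Lrrn4 (-0.19) of mesothelium, Ryr2 (0.17) and Nppa (-0.37) of heart, Tnnt3 (-0.31) and Tnni2 (-0.12) of skeletal muscle, Cidec (-0.27) and Cfd (-0.33) of fat, Col11a2 (0.10) of cartilage, and Tg (0.13) and Krt5 (-0.23) of neck tissues. Calls of Nkg7, Ear2, Ly6c2, Dnah5, Cyp2f2, Socs3, Tgfb1, Elovl1, Abcg1, Fabp1 and Cd74 ended in 24, 25, 22, 21, 8, 8, 8, 7, 4, 2 and 1 of the 36 fits with 1 library left out, in that order.

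Summed levels of blood cell genes had lower medians with anti-Ly6G, and no erythroid or B cell gene passed. The summed signal of the erythroid genes was between 554 and 8761 (median 2395) with IgG and between 393 and 5132 (median 1584) with anti-Ly6G. Hba-a1, an alpha globin, was between 46.5 and 789 (median 202) and between 29.2 and 468 (median 138), which is -0.75 on the log2 scale (SE 0.357; adjusted p = 0.21). All 6 erythroid genes were negative and none passed. Bpgm was at -0.21. All 12 B cell genes were negative as well, with a median of -0.25 and none past the threshold, Cd22 at -0.29 and Ebf1 at -0.13 among them, and their summed signal was between 51.9 and 295 (median 127) with IgG and between 49.5 and 145 (median 99.97) with anti-Ly6G. One IgG library at ZT 9, LU14, had the highest sum of the B cell, T cell, NK cell, platelet and mature neutrophil lists. With the mean log2 level of 4 hemoglobin genes added as a covariate, 642 genes passed (314 higher, 328 lower), and with that of the B cell list 452 (186 higher, 266 lower). In those fits Mki67 was at -0.60 and -0.59, Csf3r at -0.86 and -0.78, Il1b at -0.82 and -0.74, and Tsc22d3 at 0.61 and 0.52. The fallen mitosis genes numbered 12 and 13 of 18, the risen glucocorticoid genes 3 and 3 of 14 without Per1, and the fallen collagen genes 3 and 4 of 20. Blood in the tissue was not otherwise measured.

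Values of several clock genes by treatment and ZT are given here as a description. Nr1d1, which encodes the clock repressor REV-ERB alpha, was between 40 and 60.5 with IgG and between 70.5 and 150 with anti-Ly6G at ZT 1, and between 41.4 and 49.3 and between 11.5 and 24.1 at ZT 13. Its log2 differences between anti-Ly6G and IgG were 0.90, 0.01, -0.69, -1.23, -0.05 and 0.88 at ZT 1, 5, 9, 13, 17 and 21. Dbp was between 2.06 and 2.91 with IgG and between 4.69 and 30.6 with anti-Ly6G at ZT 1, and between 24.6 and 44.4 and between 10.9 and 14.1 at ZT 13. Nr1d2, a second REV-ERB gene, was between 24.3 and 36 and between 48.6 and 110 at ZT 1, and between 138 and 154 and between 72.3 and 115 at ZT 13. Per3 was between 27.2 and 28 and between 41.3 and 61 at ZT 1, and between 137 and 158 and between 95.8 and 130 at ZT 13. Npas2, a partner of BMAL1, went the other way, with IgG libraries between 26.4 and 30.3 and anti-Ly6G libraries between 14.7 and 25.5 at ZT 1, and between 2.64 and 3.72 and between 5.63 and 11.6 at ZT 13. Arntl was between 5.37 and 6.63 and between 9.74 and 18.6 at ZT 13. These genes, Arntl aside, have the smallest interaction p. The share of all genes whose treatments lie apart at a ZT was not counted, so ranges that lie apart here are no result about clock genes. Whether the hours of the peaks differed between treatments was not tested. Averaged over the ZT, the log2 differences were smaller, with Nr1d1 at -0.03, Dbp at -0.07, Nr1d2 at 0.09, Npas2 at 0.14, Per3 at 0.11, Arntl at 0.16, Clock at 0.04, Per2 at 0.22, Cry1 at 0.11, Cry2 at 0.15, Rora at 0.06, Tef at 0.10, Hlf at -0.02, Nfil3 at 0.17, Ciart at 0.22, Bhlhe41 at -0.18 and Bhlhe40, a stimulus-responsive repressor, at -0.25. Of all genes, 1 passed the test of a treatment by ZT interaction (0.00639% of 15641; 943 at an unadjusted p under 0.05), and it was Nr1d1. Next by p, and not passing, came Dbp, Nr1d2, Npas2, Per3 and Gatm, an enzyme of creatine synthesis (adjusted p = 0.36). All of these but Gatm are clock genes, so for them the test is not independent of the assignment.

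**Figure D5:**
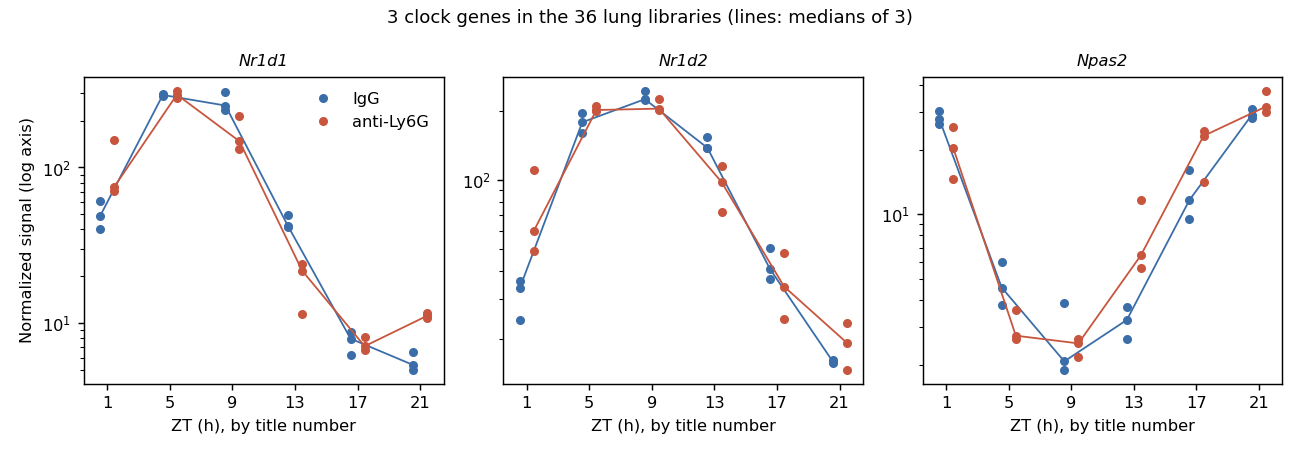
Normalized signal (log axis) of Nr1d1, Nr1d2 and Npas2 against ZT (h, by title number) in the 36 lung libraries; points are libraries and lines join medians of 3. Nr1d1 is higher with anti-Ly6G at ZT 1 (70.5 to 150 against 40 to 60.5) and lower at ZT 13 (11.5 to 24.1 against 41.4 to 49.3).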

How the data were processed

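RNA was sequenced from 36 lung samples as single reads of 50 nt. Per the labels' protocols, adapters were removed with Cutadapt 1.7.1 and reads were quantified against GRCm38 Ensembl 84 with RSEM 1.2.20 and Kallisto 0.43.1, while the submitters' processing notes name mm10, RSEM 1.7.1 and limma 3.46. The normalization method is not given in the sources used here. The authors' deposited values are a normalized signal. After rescaling each library so that its lowest value was 0.5, 100% of values had no more than 2 decimals (tolerance 0.001), the form of RSEM estimates with an offset added. Whole numbers made up 29.7%, so count tests were not used.

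Values were analysed as log2(value + 1) with limma 3.58.1 in R 4.3.3, with a mean-variance trend, two-sided tests and Benjamini-Hochberg adjustment, on 15641 of 17360 genes with a mean of at least 1. ZT entered as a factor. The interaction was an F test of the 5 treatment by ZT terms. The fits were tested on simulated data. Symbols came from GENCODE M21, with 68 identifiers unmatched. The assignment by title number, the 50 gene lists and the genes named were chosen with earlier results of these data known, so p-values are conditional on the assignment. Named genes were the 12 largest rises and 12 largest falls past 0.05 with the same sign at 5 or more ZT, leaving out unnamed models, small RNAs and antigen receptor segments, the 8 smallest p, members of the clock and neutrophil lists, up to 4 members past 0.05 of other lists or, with none past, the 2 smallest p, the 6 smallest interaction p and the 5 smallest p by the deposited labels. Alternatives covered the pseudocount, the filter, scaling, the time term, weights, moderation, and libraries or ZT left out. Covariates for hemoglobin and B cell levels, leaving out libraries in the interaction, and the glucocorticoid list without Per1 were chosen after seeing the data. The 47 skin libraries were not used. A few genes that this rule names are not reported here.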

Additional observations from a re-analysis of the deposited data

Results flagged for a closer look

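Nr1d1 was the 1 gene whose difference between anti-Ly6G and IgG varied with ZT by the interaction test (limma F test, adjusted p = 0.00391, over 15641 genes). The difference was 0.90 at ZT 1, -1.23 at ZT 13 and 0.88 at ZT 21 on the log2 scale. Clock genes are treated as among the values that led to the assignment of ZT, so this p is not independent support for it. The call held in each of the 36 fits with 1 library left out, with adjusted p up to 0.022. Those fits reuse the same values and the same assignment, so they are a description and add no support.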

How the results depend on the processing

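With the pseudocount at 0.1 or 5, no filter, a filter at a mean of 4, quantile normalization, a cosine and sine, array weights and robust moderation, the comparison by title number called between 825 and 1424 genes, within 1.5 times of 1076. It called 342 with no ZT term, 583 without ZT 1, 515 without ZT 5, 694 without ZT 21, 594 without LU1, LU2 and LU3, 642 with the hemoglobin covariate, 452 with the B cell covariate and 0 with the deposited labels, and between 804 and 1360 with 1 library left out. Fewer libraries entered the fits without a ZT, and the cause of the other changes was not tested. A replicate block by place within each 3 title numbers called 1076 genes, and the labels pair no libraries. The mitosis count was 6 with a filter at a mean of 4, which left 6 members tested. By the deposited labels the count was 0, or 1 without ZT 5, 1 without ZT 9, 2 without ZT 13 and between 0 and 1 with 1 library left out. The interaction called 1 gene under 4 other settings (both pseudocounts, no filter, cosine and sine) and between 1 and 8 with 1 library left out, with 3 without LU4, 2 without LU5, 8 without LU22 and 7 without LU29. Of 66 genes named with a call or as neutrophil genes, 34 kept their side of the threshold under each alternative in which they were tested but the deposited labels (3 of the 34 lay under the filter at a mean of 4), 15 lost it when 1 library was left out and 29 when 1 ZT was left out. For Per1, Il1b and the neutrophil genes among the 66, keeping a call is no support for the assignment. None of the 66 changed sign other than with the deposited labels, which by construction exchange the treatment of 28 libraries. The log2 differences were then Per1 (-0.69), Nr4a3 (-0.53), Tsc22d3 (-0.64), Fam107a (-0.54), Spp1 (-0.40), Errfi1 (-0.44), Angptl4 (-0.60), Klf15 (-0.41), Ddit4 (-0.40), Wfdc8 (-0.29), Clec12b (-0.31), Il1b (0.35), Egr1 (0.50), Mki67 (0.37), Lif (0.45), Ndnf (0.30), Cdk1 (0.29), Clec11a (0.10), Mcm5 (0.24), Lgals1 (0.21) and Rrm2 (0.26). They were Junb (0.23), Top2a (0.25), Aurkb (0.33), Cdt1 (0.18), Mcm2 (0.18), Ier2 (0.12), Nfkbia (-0.32), Il1a (0.16), Il1rn (0.18), Col15a1 (0.21), Tnc (0.24), Col3a1 (0.20), Lox (-0.21), Lum (0.21), Col1a1 (0.19), Cp (-0.0942), Socs3 (0.18), Hp (-0.12), Slc2a1 (-0.11), Ly6c2 (-0.15), Cd28 (0.14) and Nkg7 (0.20). They were Aqp5 (0.10), Cyp2f2 (-0.19), Dnah5 (-0.17), Apln (0.23), Fibin (-0.22), Itgb2 (0.15), Selplg (0.12), Ackr3 (0.16), Abcg1 (0.0751), Elovl1 (0.16), Csf3r (0.53), S100a8 (0.45), S100a9 (0.55), Mmp9 (0.34), Slfn4 (0.26), Fscn1 (0.17), Fabp1 (0.20), Ear2 (0.13), Hey1 (-0.26), Ccl21a (0.0662), Cd74 (0.13), Tgfb1 (0.0701) and Col14a1 (0.0740). Depth limits genes near a mean of 1 most, and 3 libraries a ZT and treatment limit differences at single ZT.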
